A study of Mus musculus with 4 samples.

Results

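The heat shock chaperone genes described here are 9 of the 32285 genes measured: Hspa1a and Hspa1b, the inducible HSP70 pair, Hspa8, the constitutive HSP70, Dnajb1 and Hsph1, 2 partners of HSP70, Hsp90aa1 and Hsp90ab1, the cytosolic HSP90 pair, and Hspd1 and Hspe1, the mitochondrial chaperonin and its lid. They were chosen by name, and all 9 were found in both deposited pools. Each was followed over the cell types of the crypt, over GFP-high and GFP-negative cells, and over the tracing times.

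The cells came from the distal small-intestinal epithelium of 8 mice carrying Lgr5-EGFP-IRES-CreERT2 and Rosa26-mTmG, all given 4-OH-tamoxifen, after which cells that express the stem cell gene Lgr5 and their progeny turn green. Tracing lasted 48 h in mice 1 to 4 and 72 h in mice 5 to 8; villi were removed, cells were stained for EpCAM, CD31 and CD45, and a GFP-high sort (called clones here) and a GFP-negative sort (called control) were taken from every animal. A hashtag antibody told the animals apart within a pool, and the 2 sorts of an animal always lay in opposite pools: pool 1 held the control cells of mice 1, 2, 5 and 6 and the clones of mice 3, 4, 7 and 8, and pool 2 held the rest. The 4 groups of 4 mice are therefore clones at 48 h, control at 48 h, clones at 72 h and control at 72 h. Clone and control cells thus share genotype, drug and animals, and every cell went through the same warm EDTA and enzyme steps, so what these steps did to the genes cannot be seen from a comparison between groups. The Lgr5 allele itself makes EGFP, so the gate may also have parted cells by Lgr5 expression. All cells carry the recombinase allele, but only Lgr5-expressing cells make the recombinase. The ages of the mice were not given in the sources used here.

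Chaperones of these families hold or refold proteins. HSP70 binds exposed stretches of a client protein, J-domain partners such as Dnajb1 bring clients and start its ATP cycle, and exchange factors such as Hsph1 release them; HSP90 then finishes many kinases and receptors, while Hspd1 and Hspe1 fold proteins inside mitochondria. When unfolded proteins accumulate, heat shock factor 1 binds heat shock elements, arrays of inverted GAA units, and switches on the inducible members, above all Hspa1a and Hspa1b. Hspa8, Hsp90ab1 and the mitochondrial pair are made in unstressed cells too, and dividing cells need them to fold newly made protein.

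All positions are in GRCm38 (GENCODE M21), and the promoter sequences are from RefSeq (GRCm38.p6). Hspa1a (ENSMUSG00000091971) lies at chr17:34969190-34972156 and Hspa1b (ENSMUSG00000090877) at chr17:34956436-34959238, both on the minus strand. The 250 bases before the start of Hspa1a, at chr17:34972157-34972406 on the minus strand, are shown because they bear on reading the HSP70 pair together, since Hspa1b carries nearly the same ones. Capitals mark a match to GAANNTTC, a pair of inverted heat shock units, 104 bases before the start.
Hspa1a: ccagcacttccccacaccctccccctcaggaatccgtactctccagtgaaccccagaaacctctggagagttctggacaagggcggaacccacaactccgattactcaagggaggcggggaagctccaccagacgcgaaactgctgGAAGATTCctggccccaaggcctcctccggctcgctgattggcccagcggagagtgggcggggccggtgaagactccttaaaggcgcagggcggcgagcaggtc
The window of Hspa1b at chr17:34959239-34959488 differed from it at 3 of 250 bases, C44T, T47C and T249G, with the base of Hspa1a first and positions counted from the 5′ end of the window.

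Hspe1 (ENSMUSG00000073676, chr1:55088132-55091307, plus strand) and Hspd1 (ENSMUSG00000025980, chr1:55077835-55088243, minus strand) lie head to head, and the annotated spans overlap at their starts. The array with the most matches among the windows searched (Hspa1a, Hspa1b, Hspd1, Hspe1, Hsph1 and Dnajb1), at chr1:55088053-55088082, lies 89 to 72 bases before a RefSeq transcript start of Hspe1 and also in 1 of the 2 windows of Hspd1. Hsph1 (ENSMUSG00000029657, chr5:149614287-149636376, minus strand) held 1 inverted pair at chr5:149636351-149636380, which begins 33 bases before a RefSeq transcript start. RefSeq starts, from which these distances are counted, differ from the GENCODE gene ends given for Hspe1 and Hsph1, and the Hsph1 match lies inside the GENCODE span. Capitals again mark the matches.
Hspe1: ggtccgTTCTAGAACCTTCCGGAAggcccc
Hsph1: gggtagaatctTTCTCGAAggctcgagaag
The Hspe1 stretch held 3 overlapping matches to GAANNTTC or TTCNNGAA, and 2 runs of 3 alternating units with the same spacing. Each short form is its own reverse complement, so both strands were read at once. Among 32851 promoter windows of the same 250 bases, 12.8% held a short form, 0.14% held 3 or more and 0.466% held a run of 3 units. Neither window of Dnajb1 (ENSMUSG00000005483, chr8:83608193-83612653, plus strand) held these letters. Hspa8 (ENSMUSG00000015656) lies at chr9:40800984-40810087 on the plus strand, Hsp90aa1 (ENSMUSG00000021270) at chr12:110690605-110702728 on the minus strand and Hsp90ab1 (ENSMUSG00000023944) at chr17:45567775-45573271 on the minus strand, and no promoter of these 3 genes was searched. A match is a description of letters, and binding was not measured.

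The copies also bear on counting. Of the 90-base stretches of the Hspa1a transcript, 50.9% also occur in another gene, mostly Hspa1b, while none of the last 500 stretches do. For Hspa8 the share was 64.7%, and 83.4% in the last stretches, mostly in the pseudogene Gm15459. It was 50.0% for Hsp90aa1, with none in the last stretches, and 0% for Hsp90ab1, Dnajb1 and Hsph1. It was 29.4% for Hspd1 and 21.6% for Hspe1. Where along the transcript the reads lie is not given in the sources used here, so the levels of Hspa1a, Hspa1b, Hspa8, Hsp90aa1, Hspd1 and Hspe1 are uncertain where reads of such copies were split or dropped. Hspa1a and Hspa1b are also given as 1 sum.

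Of 5452 barcodes, 4029 had 1 hashtag and 1993 passed the cell filters. Clones at 48 h were thin, with 110 cells (4 to 83 per mouse, 77566 to 298850 UMIs per mouse), against 586 control cells at 48 h (1471640 to 5042193 UMIs), 631 clone cells at 72 h (813389 to 6370450) and 666 control cells at 72 h (1950263 to 5186012). The 83 clone cells of mouse 3 stood apart, with a median of 1841 UMIs and a top hashtag that took 48.6% of hashtag counts, so results at 48 h rest on few and partly doubtful cells. Only 1 barcode sequence occurred in both pools. All 5 epithelial markers (Epcam, Cdh1, Krt8, Krt18 and Krt19) were present, at a summed 6034 to 9467 CPM (counts of a gene scaled to the same total in every sum) in every mouse and gate, while summed immune, endothelial, stromal and erythroid markers stayed at 13.9, 16.7, 29.0 and 0.384 CPM or below. Cdh5, Kdr, Cldn5, Col1a1, Col1a2, Col3a1, Hba-a1 and Hbb-bt had no UMI.

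Across the crypt, 6 of the 9 members (Hspa8, Hsph1, Hsp90aa1, Hsp90ab1, Hspd1 and Hspe1) had a lower mean level in goblet-like cells than in both stem-like and dividing-like cells. Hspa1a, Hspa1b and Dnajb1 did not. For Hspa1a and Hspa1b the goblet-like mean was raised by mouse 7, at 228.8 and 194.9 CPM. The other mice had 3.53 to 20.4 and 5.29 to 30.8 CPM, and goblet-like cells exceeded dividing-like cells in only 3 of 8 mice for each gene. The cells fell into 675 dividing-like, 330 stem-like, 250 secretory progenitor-like, 208 goblet-like, 170 enterocyte-like, 59 Paneth-like, 47 tuft-like and 34 enteroendocrine-like cells, and 220 were left unnamed. The members, their pathway and the immediate early genes were kept out of the genes used for clustering. The secretory progenitor-like cluster was led by Dll1 and Cbfa2t3 by fold, and by Ern2 and Fcgbp by rank. Fcgbp and Tff3 were among the leading genes by rank of goblet-like cells too. No cluster took the secretory progenitor name at a lower Leiden resolution, or with the heat shock and immediate early genes let in. At a resolution of 1.5 the class held 32 cells. The border between this class and goblet-like cells therefore depended on the clustering. Levels below are CPM, the share of a class's UMIs, given as the mean ± SD over mice with at least 5 cells of the class (8 mice, but 6 for Paneth-like, 5 for tuft-like and 4 for enteroendocrine-like cells). They are a description, since classes were drawn from the same cells. As shares, they do not give UMIs per cell. Median depth was 31462.5 UMIs in goblet-like and 32156 in Paneth-like cells. It was 14548.5 in stem-like, 16755 in dividing-like and 20650 in secretory progenitor-like cells, and the part of depth in the class differences was not tested.

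Hsp90ab1, the constitutive HSP90, had its highest level in the stem-like class. It stood at 4131 ± 337 CPM there (lowest 3549, median 4118, highest 4700) and at 3080 ± 334 CPM in dividing-like cells (2696, 2985 and 3507). Stem-like cells were higher in 8 of 8 mice, the ranges did not overlap, and the gap exceeded both SDs. From there the level stepped down through enteroendocrine-like (3070 ± 324), tuft-like (2515 ± 232) and secretory progenitor-like cells (2499 ± 296) to enterocyte-like (1704 ± 317), Paneth-like (1468 ± 537) and goblet-like cells (1205 ± 126). Of these steps, enteroendocrine-like to tuft-like and secretory progenitor-like to enterocyte-like exceeded both SDs. Both stem-like clusters were high, the one led by Edn1 and Lgr5 at 4209 ± 359 CPM and the one led by Zbtb16 and Clca3a1 at 3797 ± 252 CPM. An unnamed cluster led by Ifitm3, H2-Eb1 and Olfm4 was also high, at 4036 ± 405 CPM.

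Hspd1 and Hspe1, the mitochondrial chaperonin and its lid, were highest in dividing-like cells among the named classes. Hspd1 was at 871 ± 117 CPM there (lowest 661, median 898, highest 1004) and at 624 ± 83.7 CPM in stem-like cells (498, 615 and 723). Dividing-like cells were higher in 7 of 8 mice, although the ranges met. For Hspe1 the values were 614 ± 46.2 CPM (533.8, 625.3 and 666.6) and 455 ± 61.1 CPM (384.6, 439.5 and 585.0), and dividing-like cells were higher in 8 of 8 mice. Goblet-like cells lay at 175 ± 40.3 CPM for Hspd1 and 172 ± 32.2 CPM for Hspe1, so dividing-like cells stood 4.97-fold and 3.58-fold above them. The unnamed cells stood near dividing-like cells, at 823 ± 92.0 CPM for Hspd1, and had the higher mean for Hspe1, at 657 ± 59.9 CPM. Between the extremes the orders differed: secretory progenitor-like cells were above enterocyte-like cells for Hspd1 (419.5 against 347.6 CPM) and below them for Hspe1 (345.6 against 365.8 CPM).

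Within the dividing-like class, Hspd1 was at 1014 ± 161 CPM in the cluster led by replication genes such as Cdc6 and Mcm3, at 921 ± 243 CPM in a cluster led by histone genes and at 907 ± 123 CPM in the cluster led by mitotic genes such as Cdc20 and Ccnb2. These 3 do not differ beyond their SDs. A small cluster of 49 cells, led by Hist1h2ab and Sapcd2 and named dividing-like too, was lower, at 424 ± 34.9 CPM (3 mice). UMIs of mitochondrial genes themselves were highest in dividing-like cells as well, at 87990 ± 9538 CPM, against 71310 ± 10990 in stem-like and 51370 ± 4959 in goblet-like cells, and their part in the order was not tested.

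Hspa8, the constitutive HSP70 and a client-binding hub of the cytosol, varied less. Enteroendocrine-like (1704 ± 322 CPM), stem-like (1623 ± 146), dividing-like (1570 ± 160), tuft-like (1421 ± 214), enterocyte-like (1252 ± 174) and secretory progenitor-like cells (1234 ± 120) formed a slope in which no neighbours differed beyond their SDs. Then came a drop to goblet-like cells at 720 ± 75.5 CPM (lowest 603, median 731, highest 824), below secretory progenitor-like cells in 8 of 8 mice without overlap. Paneth-like cells were at 707 ± 292 CPM. Hsp90aa1, the inducible HSP90, was at 817 ± 106 CPM in dividing-like, 791 ± 183 in tuft-like, 735 ± 151 in enteroendocrine-like and 680 ± 102 in stem-like cells, which did not differ from their neighbours beyond the SDs. It was at 460 ± 86.7 CPM in secretory progenitor-like cells, lower than stem-like cells in 8 of 8 mice, and at 275 ± 79.5 CPM in goblet-like cells.

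The 2 HSP70 partners had different orders. Hsph1, the exchange factor, was at 81.7 ± 33.6 CPM in tuft-like, 73.3 ± 9.75 in dividing-like, 70.0 ± 18.6 in enteroendocrine-like and 61.8 ± 27.3 CPM in stem-like cells, 34.1 ± 7.60 in secretory progenitor-like, 16 ± 14.4 in goblet-like and 7.94 ± 5.72 CPM in Paneth-like cells. Dnajb1, the inducible J-domain partner, was at 135 ± 89.1 CPM in secretory progenitor-like and 130 ± 56.9 in goblet-like cells, against 85.3 ± 43.7 in stem-like and 60.5 ± 16.6 in dividing-like cells. Enteroendocrine-like cells were at 108.9 ± 97.3 CPM. Tuft-like cells were lowest, at 33.1 ± 18.2 CPM, below dividing-like cells by more than both SDs. Mouse 7, at 341.3 CPM, raised the secretory progenitor-like mean, and without this mouse goblet-like cells were highest, at 115.2 CPM. Goblet-like cells were above dividing-like cells in 8 of 8 mice and above stem-like cells in 7 of 8. The summed immediate early genes, 18 genes that also react to cell handling, were high in goblet-like (14850 ± 2391 CPM) and secretory progenitor-like cells (12030 ± 1726). Enteroendocrine-like cells had 13020 ± 2857 CPM, against 9102 ± 1581 in stem-like, 5595 ± 762 in dividing-like and 4417 ± 1333 CPM in tuft-like cells. Paneth-like cells, where Dnajb1 was at 67.9 ± 22.1 CPM, had 13910 ± 3775 CPM of these genes. Their part in the Dnajb1 order was not tested.

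Hspa1a and Hspa1b varied so much between mice that no neighbours in their class order differed beyond both SDs. The mean of Hspa1a was 70.9 ± 103 CPM in enterocyte-like cells, 39.7 ± 76.6 in goblet-like, 36.5 ± 28.3 in dividing-like and 35.3 ± 36.7 in stem-like cells, and the SD exceeded the mean in all of these but dividing-like cells. In enterocyte-like cells the lowest mouse had 0, the median was 19.5 and the highest, mouse 7, had 300.7 CPM. Hspa1b was at 54.0 ± 49.1 CPM in enterocyte-like, 48.5 ± 55.1 in stem-like, 39.6 ± 63.3 in goblet-like and 35.3 ± 23.2 in dividing-like cells. Tuft-like and enteroendocrine-like cells were at the low end, and Hspa1a was higher in dividing-like than in tuft-like cells in 5 of 5 mice and than in enteroendocrine-like cells in 4 of 4, by more than both SDs. These low classes held few UMIs, with 2 and 1 UMIs of Hspa1a and 5 and 1 of Hspa1b in 47 and 34 cells.

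**Figure D1:**
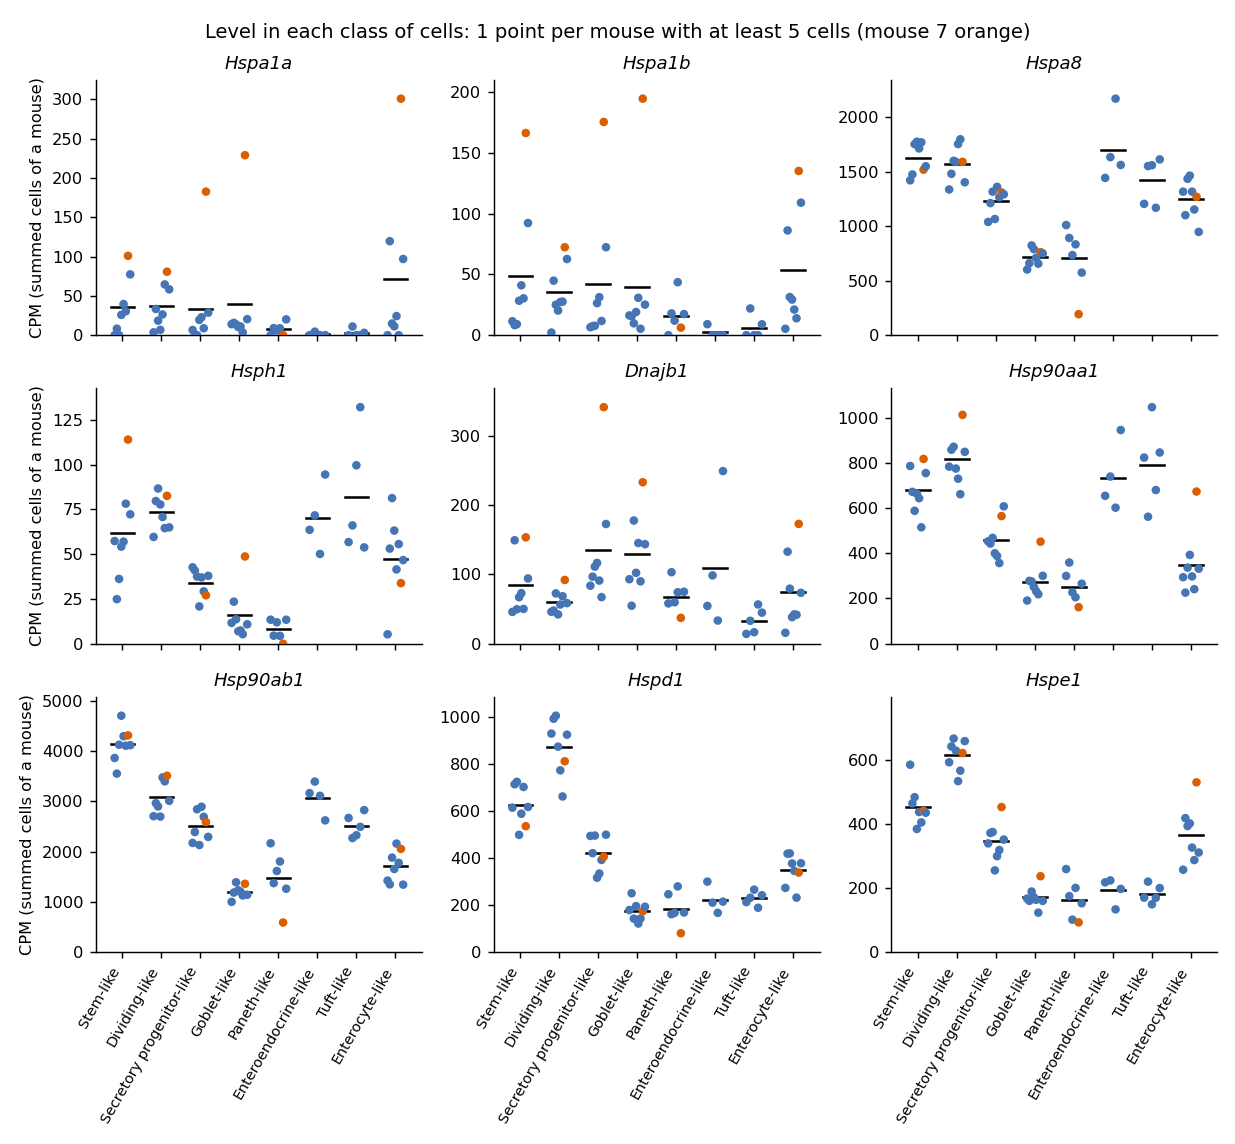
Level of each gene in CPM (vertical axis, each from 0) in 8 classes of cells; a point is a mouse with at least 5 cells of the class and a line the mean. Hsp90ab1 is higher in stem-like than in dividing-like cells in 8 of 8 mice, Hspd1 and Hspe1 peak in dividing-like cells, and mouse 7 (orange) is the highest for Hspa1a and Hspa1b in stem-like, dividing-like, secretory progenitor-like, goblet-like and enterocyte-like cells.

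In sparse counts, a share of cells with a UMI depends on depth. After thinning 1888 cells to 2000 UMIs (105 shallower cells left out), Hsp90ab1 had a UMI in 95.9% of cells (95% Wilson interval 94.9% to 96.7%), Hspa8 in 87.4%, Hsp90aa1 in 62.1%, Hspd1 in 60.9% and Hspe1 in 50.2%. Dnajb1 reached 13.5%, Hsph1 10.2%, Hspa1b 6.46% and Hspa1a 5.56%. Unthinned, the shares of Hsp90ab1 and Hspa1a were 99.2% and 19.9%. Intervals of shares, and upper limits where nothing was counted, cover counting error only.

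Clones against control asks whether recent progeny of Lgr5-expressing cells carry other chaperone levels than the surrounding epithelium. None of the 9 members was called at either time. Counts were summed per mouse and gate and fitted over 10606 genes with edgeR (quasi-likelihood test, two-sided, Benjamini-Hochberg adjustment, pool as a covariate), and a gene was called at an adjusted p under 0.05. At 48 h 0 of 9 members and 0% of all genes were called, with 1271 genes and 0 members at an unadjusted p under 0.05. At 72 h these were 0 of 9 and 0%, with 842 genes and 0 members, and over all mice 0 of 9 and 0.00943%, with 1781 genes and 1 member. DESeq2 called 63, 8 and 234 genes in the same comparisons and no member. Median log2 fold changes were 0.07 over the members and -0.07 over all genes at 48 h, and 0.05 and 0.01 at 72 h. The comparisons share samples: each gate at each time enters several of them. In such sums, a smaller share of a cell type and less RNA per cell cannot be told apart.

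Hsp90ab1 came closest. In mice 1, 2, 3 and 4 its level was 3984, 3188, 2480 and 2976 CPM in clones and 2330, 2320, 2715 and 2361 in control cells. In mice 5, 6, 7 and 8 it was 3588, 2980, 3549 and 2600 CPM in clones and 2851, 2863, 2696 and 1902 in control cells. Clones were above the control cells of their own mouse in 3 of 4 mice at 48 h and 4 of 4 at 72 h, and the ranges overlapped at both times. The log2 fold change was 0.29 ± 0.16 (SE) at 48 h, 0.26 ± 0.16 at 72 h and 0.28 ± 0.11 over all mice (95% interval 0.04 to 0.51; edgeR adjusted p = 0.222). The adjusted p ran from 0.0798 to 0.498 over the alternatives. Without mouse 3, whose clone cells stood apart, the 48 h value of Hsp90ab1 was 0.44.

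Stem markers had a higher mean in clones too. The levels of the 12 stem markers, none at 0, were summed. At 48 h the sum was 3115 to 7542 CPM in clones and 2093 to 2708 CPM in control cells. At 72 h it was 3623 to 6445 CPM in clones and 1666 to 3197 CPM in control cells. The ranges did not overlap at either time, but they did with both times pooled. In mouse 3 clones had more of these markers (3115 against 2708 CPM) but less Hsp90ab1 (2480 against 2715 CPM). The part of the stem markers in the Hsp90ab1 difference was not tested. Within stem-like cells of the 72 h mice, Hsp90ab1 was at 4373, 4276, 4339 and 3938 CPM in the clones of mice 5, 6, 7 and 8 and at 4191, 4027 and 4173 CPM in the control cells of mice 5, 6 and 7. Clones were higher in 3 of 3 mice with both gates, though the ranges overlapped. The log2 difference was 0.01 ± 0.10 (edgeR adjusted p = 1), and 0.06 ± 0.04 with mouse as a block (adjusted p = 0.769).

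Hspa8 was higher in clones at 48 h in every mouse. Clones of mice 1, 2, 3 and 4 had 1457, 1483, 1462 and 1634 CPM, and control cells 1165, 1254, 1454 and 1253. The ranges did not overlap, although the lowest clone and the highest control value nearly met, as was true of 2.54% of all genes in that direction, and no other member did this in clones against control. The log2 fold change was 0.17 ± 0.14 (95% interval -0.13 to 0.47; edgeR adjusted p = 0.691). At 72 h clones had 1694, 1381, 1375 and 1238 CPM in mice 5 to 8, control cells had 1396, 1414, 1357 and 1057, and the ranges overlapped.

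The mitochondrial pair was near even at 72 h. Hspd1 was at 545, 452, 612 and 652 CPM in clones and 547, 498.5, 578 and 438 in control cells of mice 5, 6, 7 and 8, a log2 difference of 0.09 ± 0.14. Hspe1 was at 428, 372.5, 475 and 457 CPM in clones and 413, 367.5, 551 and 366 in control cells. The log2 difference was 0.00 ± 0.17 (95% interval -0.35 to 0.36). At 48 h Hspe1 was at 890, 590, 428 and 442 CPM in clones and 433, 432, 512 and 377 in control cells, a log2 difference of 0.29 ± 0.18, and the ranges overlapped. Hspd1 was at 799, 713, 716 and 576 CPM in clones and 642, 637, 689 and 464 in control cells, higher in clones in 4 of 4 mice, with a log2 difference of 0.13 ± 0.15 (edgeR adjusted p = 0.781).

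The inducible genes gave no precise difference between gates. Hspa1a had 0, 12.3, 6.69 and 0 CPM in the clones of mice 1, 2, 3 and 4, from 5 UMIs in all, and 4.94, 30.6, 13.1 and 13.8 in control cells. A count of 0 in mice 1 and 4 allows up to 38.7 and 23.7 CPM (3 counts of the sum's UMIs), above the control values of these mice, 4.94 and 13.8 CPM. Clones were lower in 4 of 4 mice, but the log2 difference was -1.09 ± 1.81 with an interval from -4.91 to 2.73, so a difference was not detectable at this depth. Hspa1b had 0, 4.10, 30.1 and 0 CPM in these clones and 5.93, 35.3, 19.6 and 22.1 in these control cells, a log2 difference of -0.59 ± 1.42, with -3.35 without mouse 3 and 0.45 without mouse 2. Under another hashtag rule, based on the ratio of the top hashtags, the differences turned to 1.14 for Hspa1a and 1.02 for Hspa1b.

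At 72 h Hspa1a had 34.0, 40.6, 40.2 and 58.7 CPM in clones and 21.6, 22.7, 215.9 and 34.7 in control cells of mice 5, 6, 7 and 8. Clones were above control in 3 of 4 mice, and the control cells of mouse 7 stood far above all others. The log2 difference was -0.41 ± 0.59, and 0.74 without mouse 7. Hspa1b was at 33.5, 22.1, 61.0 and 75.7 CPM in clones and 27.8, 23.0, 173.3 and 34.9 in control cells, higher in clones in 2 of 4 mice and again highest in the control cells of mouse 7, with a log2 difference of -0.18 ± 0.59, and 0.68 without mouse 7.

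Dnajb1, Hsph1 and Hsp90aa1 overlapped between gates at both times. Dnajb1 was at 79.3, 61.5, 103.3 and 88.2 CPM in the 72 h clones and 63.4, 65.7, 183.6 and 99.8 in the 72 h control cells, again with mouse 7 control highest (log2 difference -0.22 ± 0.24). Hsp90aa1 was at 620, 416, 717 and 633 CPM in those clones and 495, 437, 828 and 506 in those control cells, a difference of 0.05 ± 0.20. At 48 h, Dnajb1 was at 77.3, 114.7, 56.9 and 55.3 CPM in clones and 57.6, 66.6, 86.1 and 72.5 in control cells, and Hsp90aa1 at 774, 655.5, 519 and 410.5 and at 588, 588, 639 and 482. Neither gate was higher throughout for these 2 genes. Hsph1 ranged from 25.8 to 74.6 CPM over all clones and 32.5 to 70.8 CPM over all control cells, and was lower in clones in 4 of 4 mice at 48 h (-0.19 ± 0.34 on the log2 scale) and higher in 3 of 4 at 72 h (0.17 ± 0.21).

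**Figure D2:**
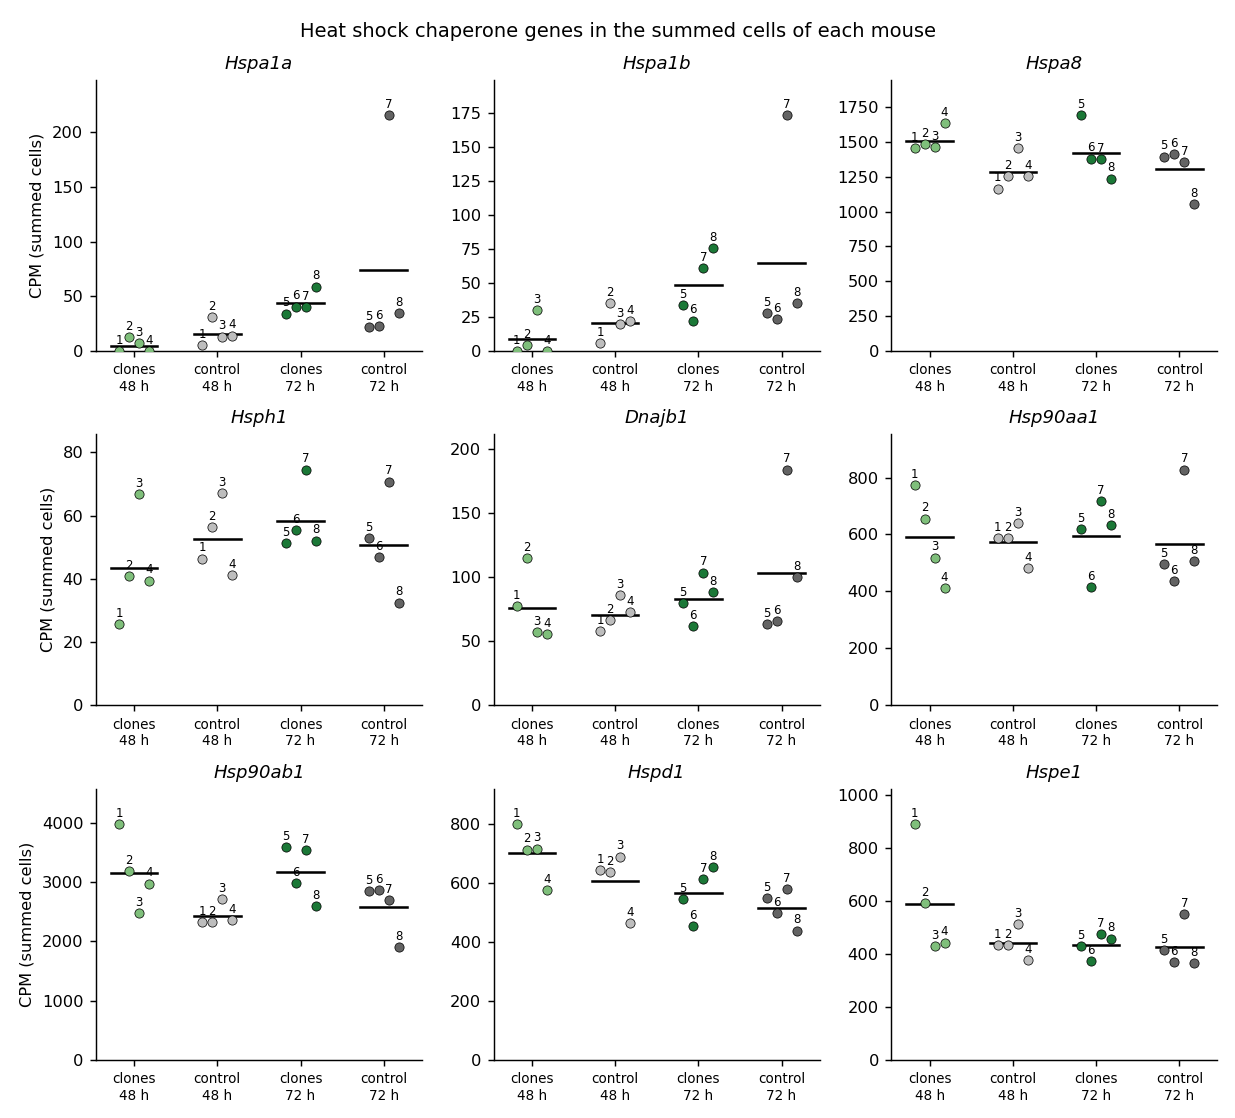
CPM of each gene (vertical axis, from 0) in the summed cells of each mouse, in the 4 groups of clones and control cells at 48 h and 72 h; each point is a mouse, marked by its number, and a line is the mean. The control cells of mouse 7 lie apart at 215.9 CPM for Hspa1a and 173.3 CPM for Hspa1b, and clones and control cells overlap for most genes.

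72 h against 48 h compares different mice in the same gate. In clones, Hspa1a ranged from 34.0 to 58.7 CPM at 72 h and from 0 to 12.3 CPM at 48 h. The values as counted do not overlap, as for 2.84% of genes in that direction, but the count of 0 in mouse 1 allows up to 38.7 CPM, above the lowest 72 h value. The log2 fold change was 2.94 ± 1.49 (95% interval -0.20 to 6.08; edgeR adjusted p = 0.790), and 0 of 9 members and 0% of all genes were called (664 genes and 0 members at an unadjusted p under 0.05; DESeq2 called 1 gene and 0 members). Hspa1b stood at 2.10 ± 1.23, with overlap, since the clones of mouse 3 had 30.1 CPM. Clones at 48 h had a median of 2116 UMIs per cell against 19445 at 72 h. Of cells thinned to 2000 UMIs, 5.00% (3 of 60; Wilson interval 1.72% to 13.7%) had a UMI of Hspa1a or Hspa1b at 48 h and 15.7% (96 of 613; 13.0% to 18.8%) at 72 h. These cells were pooled over mice and are not replicates.

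In control cells, 0 of 9 members and 0.0849% of all genes were called (575 genes and 3 members at an unadjusted p under 0.05; DESeq2 called 19 genes and 0 members). The 3 members were the inducible Hspa1a (2.26 ± 0.64 on the log2 scale; edgeR adjusted p = 0.545), Hspa1b (1.70 ± 0.60; adjusted p = 0.876) and Dnajb1 (0.57 ± 0.24; adjusted p = 0.877). All 3 were highest in the control cells of mouse 7, and without that mouse the differences were 0.97, 0.58 and 0.24. The other 6 members lay between -0.15 and 0.18 with all mice, Hspd1 lowest and Hsp90ab1 highest. Thinned, 4.31% of control cells had a UMI of the pair at 48 h (24 of 557; 2.91% to 6.33%) and 10.3% at 72 h (68 of 658; 8.23% to 12.9%). Cells were pooled over mice here and are not replicates, so these intervals do not compare the times. Unthinned, 67.5% of the control cells of mouse 7 had such a UMI. The other 72 h control mice had 25.0% to 37.5%, and the 48 h control mice 15.2% to 31.1%.

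The filter on low counts mattered for this pair. With every gene of at least 1 count kept (19588 genes), edgeR called Hspa1a and Hspa1b between times, at adjusted p = 7.09e-08 and 9e-06 in clones, where 0.674% of genes were called, and at 8.65e-27 and 1.37e-16 in control cells, where 0.955% were. The fold changes hardly moved, and the cause of the smaller p-values was not tested.

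The change of the clone-control difference between times was not called for any member (0 of 9, against 0% of all genes; 554 genes and 0 members at an unadjusted p under 0.05; DESeq2 called 2 genes and 0 members), with values from -0.29 to 0.68. Since each mouse was in both pools, the pools could be compared too: 0 of 9 members and 0% of all genes were called (500 genes and 1 member at an unadjusted p under 0.05; DESeq2 called 58 genes and 0 members). The 1 member was Dnajb1, 0.47 ± 0.19 higher in pool 2 on the log2 scale (edgeR adjusted p = 0.972). With no filter on low counts, Hspa1a was called there, at an adjusted p of 0.000323, with 0.664% of genes.

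**Figure D3:**
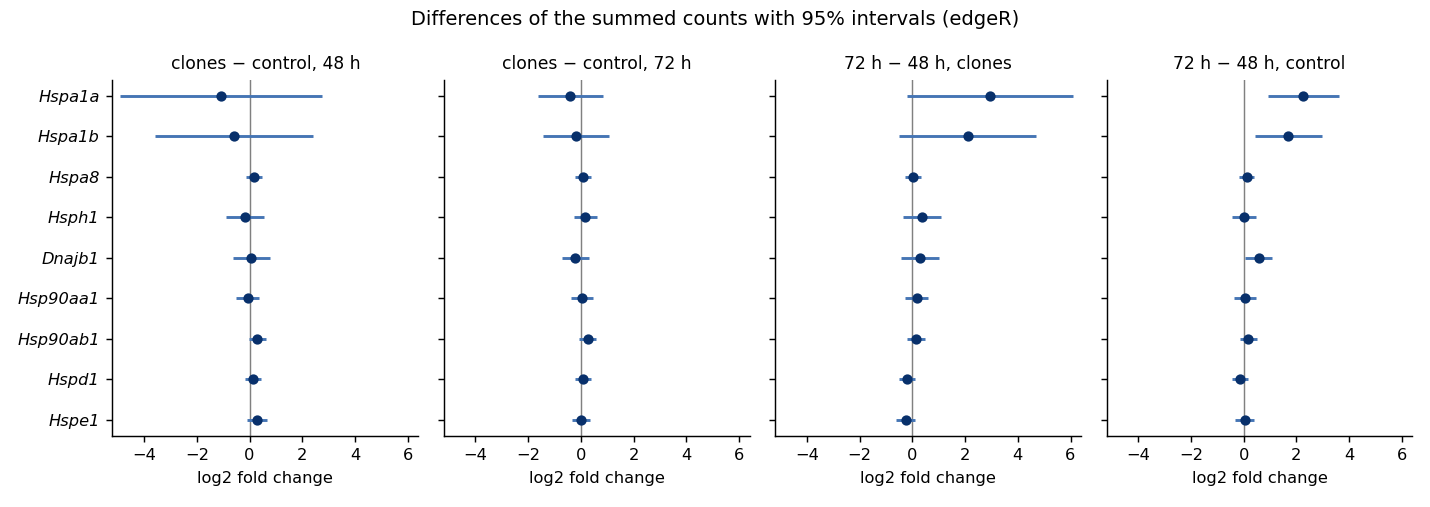
Log2 fold change of each gene (horizontal axis; 0 marks no difference) in the comparisons named over the panels; points are edgeR estimates and lines 95% intervals. Intervals of Hspa1a and Hspa1b are wide, as for -4.91 to 2.73 in clones against control at 48 h, and those of Hsp90ab1 and Hspa8 are narrow.

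A few cells carried much of the inducible HSP70 message, to a degree that differed between sums. Over all 1993 cells there were 3265 UMIs of Hspa1a and Hspa1b, and 663 cells (33.3%) had at least 1. The 82 cells (4.11%; Wilson interval 3.33% to 5.08%) with 10 or more held 51.3% of these UMIs, and the highest had 73. In the same 82 cells Dnajb1 was at 186 CPM, against 69.5 CPM in the 1330 cells with neither gene, Hsp90aa1 at 834 against 517 and Hsph1 at 89.8 against 46.4. Hspe1 was at 544.8 against 407.9 CPM, Hspa8 at 1495 against 1259, Hsp90ab1 at 2840 against 2538 and Hspd1 at 586 against 553, and the immediate early sum at 8161 against 8558 CPM. The median depth was 29154.5 UMIs in the 82 cells and 16245 in the 1330, and its part was not tested. Cells were pooled over mice, and 20 of the 82 were control cells of mouse 7. That sum was also the highest for Dnajb1 (183.6 CPM) and Hsp90aa1 (828 CPM), so differences between cells and between mice cannot be told apart here.

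The rich cells came from several classes, with 25 dividing-like, 16 enterocyte-like, 11 goblet-like, 10 secretory progenitor-like, 9 stem-like, 2 Paneth-like and 9 unnamed cells. As a share, enterocyte-like cells led with 9.41% (16 of 170; 5.88% to 14.7%), and none of 34 enteroendocrine-like or 47 tuft-like cells was among them. The bound of 10 UMIs favours deep cells, and median depth was 28009 UMIs in enterocyte-like, 14548.5 in stem-like and 10264 in tuft-like cells. At an equal 2000 UMIs, 14.02% of enterocyte-like (9.53% to 20.2%), 12.5% of stem-like (9.25% to 16.6%) and 11.6% of dividing-like cells (9.40% to 14.3%) had a UMI of the pair, with overlapping intervals. Of the 110 clone cells at 48 h none was rich either, at far lower depth.

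The control cells of mouse 7 held 20 of the 82 (20 of 77 cells, 25.97%; 17.5% to 36.7%), and these carried 85.6% of that sum's UMIs of the pair. The other control sums at 72 h had 1.92% to 4.89% and the 72 h clones 2.70% to 7.98%. The clones of mouse 7, from the other pool, had 3 of 111 (2.70%), the lowest share among the 72 h clones. They were the highest of the 72 h clones for Dnajb1 (103.3 CPM), Hsp90aa1 (717 CPM), Hsph1 (74.6 CPM) and Hspe1 (475 CPM), and 46.9% of them had at least 1 UMI of the pair. Within classes, mouse 7 control exceeded the other 72 h control mice for Hspa1a, Hspa1b, Dnajb1 and Hsp90aa1 in 5 of 5 named classes (stem-like, dividing-like, secretory progenitor-like, goblet-like and enterocyte-like), for Hspe1 in 4, for Hsph1 and Hsp90ab1 in 3, for Hspa8 in 2 and for Hspd1 in 1. In goblet-like cells, Hspa1a was at 299 CPM in mouse 7 (11 cells) against 2.55 to 9.95 in the other 3. Median mitochondrial UMIs were also highest in this sum, at 9.15%, against 4.35% to 7.60% in the other 15, and their part was not tested.

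**Figure D4:**
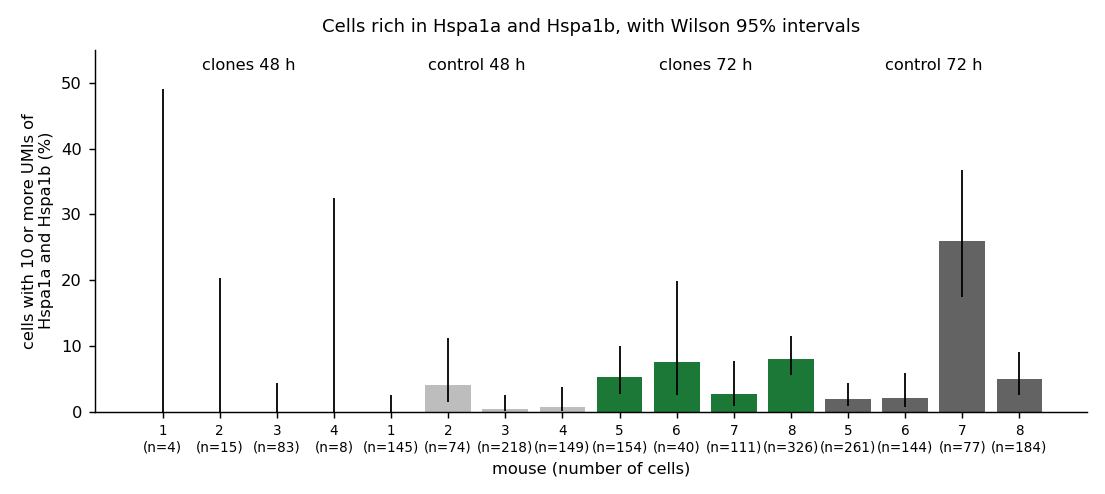
Share of cells with 10 or more UMIs of Hspa1a and Hspa1b together (vertical axis, %) in the clone and control cells of each mouse, with the number of cells under each; lines are Wilson 95% intervals. Control cells of mouse 7 reach 25.97%, and no clone cell at 48 h qualifies.

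Within a class, clones and control could be tested at 72 h in stem-like cells (clones of mice 5, 6, 7 and 8, control of mice 5, 6 and 7) and dividing-like cells (clones of mice 5, 7 and 8, control of mice 5, 6, 7 and 8), with at least 10 cells each. In both, edgeR called 0 of 9 members and 0% of all genes (353 of 6628 genes and 0 members at an unadjusted p under 0.05 in stem-like cells, 484 of 8716 and 0 members in dividing-like cells; DESeq2 called 0 and 4 genes and 0 members). In stem-like cells, Hspa1a was at 32.0, 60.7, 49.8 and 88.1 CPM in the clones of mice 5, 6, 7 and 8 and at 49.3, 16.9 and 335 CPM in the control cells of mice 5, 6 and 7. Again mouse 7 control alone was high. The log2 difference was -0.64 ± 0.64.

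With mouse as a block, which left 1 residual degree of freedom, Hspa1a was called lower in clone stem-like cells at -1.35 ± 0.29 (edgeR adjusted p = 0.0366; 0.422% of genes called), lower in 2 of the 3 mice with both gates. Without mouse 7 and without the block it was 1.28. Hsp90ab1 in dividing-like cells was at 3700, 3644 and 3167 CPM in the clones of mice 5, 7 and 8 and at 3251, 3311, 3351 and 2631 in the control cells of mice 5, 6, 7 and 8. Clones were higher in 3 of 3 mice with both gates. The log2 difference was 0.16 ± 0.15, and 0.21 ± 0.06 with the block (edgeR adjusted p = 0.0150; 2.98% of genes called).

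Among single control cells thinned to 2000 UMIs, members of a pair went together weakly. Spearman's rho of Hspa1a with Hspa1b was 0.168 over 395 dividing-like, 0.358 over 150 stem-like and 0.420 over 175 secretory progenitor-like cells. For Hspd1 with Hspe1 it was 0.142, 0.239 and 0.153, and for Hspa8 with Hsp90ab1 0.163, 0.190 and 0.281. These are descriptions of sparse counts from cells that share library and mouse.

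Of 55 other genes of the chaperone pathway, 48 passed the filter, and edgeR called 0 higher and 0 lower in every comparison. Their median log2 difference between clones and control was -0.02 at 48 h and -0.04 at 72 h, against -0.07 and 0.01 over all genes. Hsf1, which encodes the factor that switches on the response, stood at 0.66 ± 0.37 at 48 h and 0.08 ± 0.23 at 72 h. Hsf2 was at 0.39 ± 0.59 and -0.35 ± 0.36. Bag3, a stress-inducible HSP70 partner, was at -0.43 ± 0.45 and -0.50 ± 0.25. Dnaja1, another J-domain partner, was at -0.15 ± 0.18 and -0.28 ± 0.16, Stip1, which links HSP70 to HSP90, at -0.12 ± 0.23 and -0.07 ± 0.16, Hspa4, an exchange factor, at 0.01 ± 0.14 and 0.10 ± 0.11, and Hspa9, the mitochondrial HSP70, at 0.16 ± 0.16 and -0.02 ± 0.14. Hspb1, a small heat shock protein, was below the filter.

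Among chaperones of the endoplasmic reticulum, calls came with mouse as a block and not without it. Hspa5 and Hsp90b1, its HSP70 and HSP90, were at -0.77 ± 0.20 (edgeR adjusted p = 0.108) and -0.55 ± 0.17 (adjusted p = 0.141) over all mice. With mouse as a block, 6 of the 48 were called lower and 0 higher over all mice, against 3.31% of all genes called lower: Hspa5 (adjusted p = 0.00137), Hsp90b1 (0.0187), Dnajc3, Dnajb11, Hyou1 and Hspa13. At 48 h 3 were called lower (Hspa5, Hsp90b1 and Dnajc3; background 0.764%) and at 72 h 1 (Dnajb11; background 1.12%). Summed goblet markers (12 genes, none at 0) were at 477 to 43630 CPM in clones and 27420 to 64860 in control cells, and their part was not tested.

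Cells with 20% to 50% mitochondrial UMIs, left out above, carried more inducible HSP70 message in most mice. In CPM of the non-mitochondrial UMIs, Hspa1a was at 97.9 ± 125 in the 1330 such cells and 39.1 ± 43.0 in the 1993 cells kept (mean ± SD of 8 mice), higher in 7 of 8 mice. Mouse 7 had 387 and 140, and mouse 6 was the exception with 21.6 and 28.9. Hspa1b was higher in 7 of 8 mice too, Hsph1 (89.4 ± 26.8 against 57.4 ± 12.4) and Hspd1 (831 ± 139 against 625.1 ± 86.6) in 8 of 8. Hspa8 (1124 ± 137 against 1433 ± 144) and Hsp90ab1 (2350 ± 202 against 2880 ± 384) were lower in 8 of 8. Dnajb1 was higher in 2 of 8. No test was made, and the class makeup of the left-out cells was not compared.

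**Figure D5:**
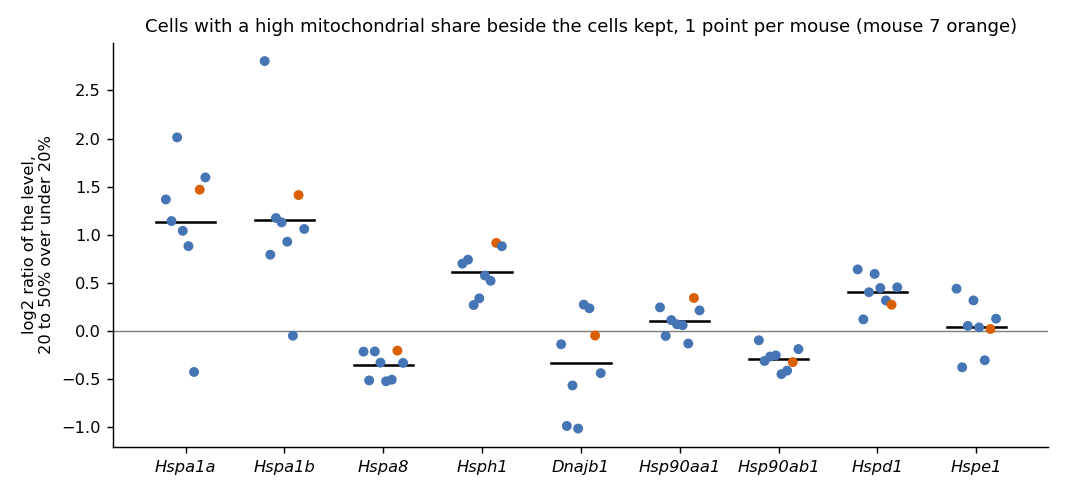
Log2 ratio of the level in cells with 20 to 50% mitochondrial UMIs to that in cells under 20% (vertical axis), 1 point per mouse (mouse 7 orange) with a line at the mean, for each gene. Hsph1 and Hspd1 lie above 0 in 8 of 8 mice, and Hspa8 and Hsp90ab1 below 0 in 8 of 8.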

How the data were processed

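The deposited matrices hold raw counts: per the file headers, whole-number UMI counts of genes and counts of hashtag antibodies per barcode, unnormalized. Other values, the names of genes, hashtags and barcodes, are in lists the authors deposited. Cell Ranger 6.1.2 and mm10 are named in the submitters' processing notes; hashtag calling and cell filters are not given in the sources used here. Members and lists were chosen with earlier results of these data known.

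Hashtags were assigned with HTODemux (Seurat 5.3.0, quantile 0.99), and cells with at least 1000 UMIs, 500 genes and under 20% mitochondrial UMIs were kept. No doublet caller was run beyond the removal of barcodes with several hashtags (333 and 160). Cells were clustered in scanpy 1.11.5 (2000 variable genes, 30 components, 15 neighbours, Leiden resolution 1.0). The naming rule, set after the data were seen, asked for 3 or more markers in the leading 50 genes and for 30% or more of a class's markers to be raised.

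UMIs of each mouse in each gate were added up to 16 sums and tested with edgeR 4.0.16 (R 4.3.3; filterByExpr, TMM, pool as covariate), with DESeq2 1.42.0 as an alternative. Clone and control sums of a mouse come from the same animal, and an alternative fit took mouse as its block. Residuals of the pair correlated at 0.017 to 0.431 across genes, which are not independent replicates. In mice 5, 6 and 7 this value (0.017, 0.116 and 0.183) lay below the highest with other mice (0.259, 0.193 and 0.336). In mice 1, 2, 3, 4 and 8 it lay above. All 9 members were named, with 10 pathway genes named by the rule and Dnajc3, Dnajb11, Hyou1 and Hspa13 as called with the block. On simulated counts (10412 genes) edgeR recovered 27.7% of 2-fold and 70.7% of 4-fold changes for the 48 h comparison, with 3 false calls. For the 72 h comparison it recovered 62.8% and 94.9%, with 8 false calls. These are shares of 94 and 99 changed genes. They do not give the recovery of a thinly counted member such as Hspa1a, with 5 UMIs in all 48 h clones. Alternatives covered normalization, the low-count filter, the pool term, mitochondrial limits, hashtag rules and leaving out each mouse. Shares have 95% Wilson intervals.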

Additional observations from a re-analysis of the deposited data

Results flagged for a closer look

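Values that stand apart within a group of 4 to 8 mice by Dixon's rule are given here. Chance flags about 1 group in 20. In the summed cells these were the control cells of mouse 7 at 72 h for Hspa1a (215.9 CPM), Hspa1b (173.3 CPM) and their sum (389.2 CPM). The others were the clones of mouse 3 for Hspa1b (30.12 CPM), of mouse 4 for Hspa8 (1634 CPM), the control cells of mouse 8 for Hspa8 (1057 CPM, lowest) and of mouse 3 for Hsp90ab1 (2715 CPM).

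Within classes over both gates, mouse 7 stood apart in secretory progenitor-like cells for Hspa1a (182.5 CPM), Hspa1b (175.7), their sum (358.2) and Dnajb1 (341.3). In goblet-like cells it did so for Hspa1a (228.8), Hspa1b (194.9), their sum (423.6), Hsph1 (48.72) and Hsp90aa1 (451.2). In enterocyte-like cells this held for Hspa1a (300.7), the sum (436.1) and Hsp90aa1 (672.9), and in unnamed cells for Hspa1a (148.1) and the sum (261.0). Among thinly counted classes, the others were Hspa1a in enteroendocrine-like cells of mouse 3 (4.479 CPM), Hspa1b in those of mouse 1 (9.084) and Hspa1a in tuft-like cells of mouse 2 (11.01).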

How the results depend on the processing

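Of the counts of members called, all kept their value but 5. With no filter on low counts, 2 members were called between times in clones and 2 in control cells (Hspa1a and Hspa1b each time), and 1 (Hspa1a) between pools. The replicate block, with mouse as the pair, gave 1 called member in stem-like cells (Hspa1a, -1.35) and 1 in dividing-like cells (Hsp90ab1, 0.21), and changed no other member's call. The block raised the genes called to 95 at 48 h, 198 at 72 h, 477 over all mice and 10 for the change between times. DESeq2 called 63, 8, 234, 1, 19, 2 and 58 genes in the 7 comparisons where edgeR called 0, 0, 1, 0, 9, 0 and 0. Of 717 alternative log2 fold changes of members, 671 kept direction and call and 42 changed sign, none of them called. The class with the highest mean was kept in all 13 alternatives for Hsp90ab1, Hspd1 and Hspe1 and in 12 for Hspa1a. It was kept in 10 for Hspa8, Hsph1 and Hsp90aa1, and in 8 for Dnajb1 and Hspa1b. At a Leiden resolution of 1.5 Hspa1a was highest in secretory progenitor-like cells, then a class of 32 cells, at 175.2 CPM.

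For clones against control at 48 h, the hashtag ratio rule gave 1.14 for Hspa1a, 1.02 for Hspa1b and 0.17 for Hsp90aa1. Hsp90aa1 was at 0.015 with DESeq2, 0.016 with its size factors and 0.049 where the top hashtag held 70% or more. A mitochondrial limit of 50% gave -0.0065 for Hspa8 and -0.19 for Dnajb1, and a limit of 10% gave -0.17 for Dnajb1. At 72 h Hspe1 was at -2.7e-05 with size factors, -7.1e-05 with totals without mitochondrial genes, -0.0072 with no filter and -0.011 both without the pool term and with the ratio rule. Between times in clones, Hspa8 was at -0.028 with DESeq2 and -0.029 with its size factors, and Hsp90aa1 at -0.093 with the ratio rule. In control cells Hsph1 was at -0.014 (top hashtag), Hspd1 at 0.0099 (limit of 10%) and Hspe1 at -0.00095 (limit of 50%) and -0.0045 (ratio rule). Over all mice the ratio rule gave 0.28 for Hspa1a, and DESeq2 gave -0.051 for Hspa1a in dividing-like cells. The causes were not tested.

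Leaving out 1 mouse at a time changed some signs. At 48 h the ranges were -3.35 to 0.45 for Hspa1b and -0.11 to 0.2 for Dnajb1. At 72 h they were -1.1 to 0.74 for Hspa1a, -0.78 to 0.68 for Hspa1b, -0.062 to 0.16 for Hsp90aa1, -0.033 to 0.17 for Hspd1 and -0.14 to 0.072 for Hspe1. Between times they were -0.057 to 0.095 for Hspa8 in clones, and -0.22 to 0.19 for Hsph1, -0.16 to 0.16 for Hsp90aa1 and -0.089 to 0.14 for Hspe1 in control cells. Within stem-like cells they were -1.45 to 1.28 for Hspa1a and -0.098 to 0.065 for Hsp90ab1, and within dividing-like cells -0.71 to 0.9 and -0.011 to 0.21. The highest values of Hspa1a and Hspa1b at 72 h, and of Hspa1a in both classes, were those without mouse 7. The 48 h clones, at 110 cells, limit the depth most.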

Other observations

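The genes whose level over the 12 sums with at least 500000 UMIs was most like the mean of the inducible members (Hspa1a, Hspa1b, Dnajb1, Hsph1 and Hsp90aa1) among 4313 genes were Pcdh1 (Pearson r = 0.794, as a description), Ubxn6 (0.778), Hsd17b11 (0.766), Oat (0.759), Pigyl (0.685) and Efnb1 (0.684). Without the control cells of mouse 7 the values were 0.566, 0.630, 0.755, 0.643, 0.686 and 0.685.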
